A study of Homo sapiens with 2 samples.

Results

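The epithelial antimicrobial proteins compared here are 10 secreted products of surface epithelia, the genes DEFB1, DEFB4A, LCN2, PI3, SLPI, RNASE7, PGLYRP2, PGLYRP3, PGLYRP4 and CAMP. A gene was included when a non-control probe of the array carried exactly its symbol, which gave 10 genes of the 43317 gene names on the array. Each had 1 probe with 1 spot, and the transcript named for each probe matched the same symbol in RefSeq for all 10. The cells were Ca9-22, an established oral squamous cell carcinoma (OSCC) line. One culture was infected with a lentiviral vector carrying the full-length cDNA of the long noncoding RNA DLEU1 and one with the empty vector, giving DLEU1 cells and control cells, and both were kept under blasticidin for 2 weeks. The cDNA had been copied from KON cells, another OSCC line, and nothing in the sources used here says whether the infected cells were clones or pools. Each vector was measured on 1 Agilent 1-colour array, so there were no replicates. No test between the vectors was possible, and a single array a side limits how precise any value can be.

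Antimicrobial proteins form the chemical part of the epithelial barrier in skin and in the mouth. Defensins, the cathelicidin encoded by CAMP and the ribonuclease RNASE7 are small cationic proteins that damage microbial membranes. PI3 (elafin) and SLPI hold whey acidic protein (WAP) domains, knit together by disulphide bonds, and inhibit neutrophil serine proteases as well as microbes. LCN2 (neutrophil gelatinase-associated lipocalin) withholds iron from bacteria by binding their siderophores, and the peptidoglycan recognition proteins PGLYRP2, PGLYRP3 and PGLYRP4 bind the bacterial cell wall. Keratinocytes raise several of these genes on contact with microbes, under cytokines such as IL-1 and IL-17, on wounding and late in their differentiation.

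The 60-base probes of 4 of these genes are printed to show which part of each transcript was measured. Capitals mark cysteine codons, the residues that form the disulphide bonds of a WAP domain, in PI3 and SLPI. The PI3 probe had 1 reading frame without an internal stop codon, which held 3 cysteine codons among its 20 codons. The SLPI probe had 2 such frames, and the one richer in cysteine held 4 among 20. No frame was marked for LCN2 and PGLYRP4. The positions (hg19, from the array files) are chr20:43804645-43804704 on the plus strand for PI3, chr20:43882220-43882279 on the minus strand for SLPI and chr9:130914244-130914303 on the plus strand for LCN2. The PGLYRP4 probe runs over chr1:153309763-153312903 on the minus strand, 3141 bases for a 60-base probe, and so joins 2 exons.
PI3: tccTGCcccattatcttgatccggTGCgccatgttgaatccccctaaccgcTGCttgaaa
SLPI: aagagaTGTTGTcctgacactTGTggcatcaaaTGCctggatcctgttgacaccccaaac
LCN2: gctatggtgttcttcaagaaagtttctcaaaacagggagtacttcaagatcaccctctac
PGLYRP4: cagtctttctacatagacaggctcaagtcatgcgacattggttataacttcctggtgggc

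The 250 bases before the transcription start are printed for LCN2, RNASE7, PGLYRP3 and PGLYRP4. These genes were detected and had an entry in the RefSeq promoter table (GRCh38.p14). The search left out DEFB1 and DEFB4A, whether or not they had an entry. Letters of 4 motifs were searched on both strands, namely AP-1 (TGANTCA), C/EBP (TTGCNNAA), STAT (TTCNNNGAA) and the TATA box (TATAAA), and matches stand in capitals. LCN2 (chr9:128149203-128149452, plus strand) held a C/EBP match that begins 143 bases before the start and an AP-1 match at 52 bases. RNASE7 (chr14:21042112-21042361, plus strand) held a C/EBP match at 181 bases and an AP-1 match at 102 bases. PGLYRP3 (chr1:153312953-153313202, minus strand) and PGLYRP4 (chr1:153348842-153349091, minus strand) each held a C/EBP match, at 90 and 89 bases. Both windows shared an identical run of 65 bases downstream of these matches, and a shorter identical stretch around the matches themselves. The matches of PGLYRP3 and PGLYRP4 therefore cannot be counted as separate ones. Of all 35116 promoter windows of this length, 9.05% held the C/EBP letters, 6.57% the AP-1 letters, 6.57% the STAT letters and 10.72% the TATA letters. A match describes letters and not a bound site, and no binding was measured here. The windows of CAMP and PGLYRP2 held no match to any of the 4 motifs.
LCN2: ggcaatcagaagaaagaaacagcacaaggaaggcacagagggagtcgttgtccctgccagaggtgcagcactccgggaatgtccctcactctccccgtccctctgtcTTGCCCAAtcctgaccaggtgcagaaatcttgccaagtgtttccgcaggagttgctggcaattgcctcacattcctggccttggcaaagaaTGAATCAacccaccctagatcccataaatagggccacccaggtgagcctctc
RNASE7: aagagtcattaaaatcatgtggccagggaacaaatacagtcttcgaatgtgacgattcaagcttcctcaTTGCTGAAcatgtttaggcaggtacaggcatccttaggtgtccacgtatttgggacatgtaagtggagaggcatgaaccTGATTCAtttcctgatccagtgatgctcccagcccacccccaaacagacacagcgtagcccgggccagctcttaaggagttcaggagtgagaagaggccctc
PGLYRP3: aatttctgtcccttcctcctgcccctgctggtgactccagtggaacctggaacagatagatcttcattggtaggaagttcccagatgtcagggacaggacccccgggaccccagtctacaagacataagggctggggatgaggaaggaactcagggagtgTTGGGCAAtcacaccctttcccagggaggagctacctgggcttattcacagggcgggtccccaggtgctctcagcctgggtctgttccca
PGLYRP4: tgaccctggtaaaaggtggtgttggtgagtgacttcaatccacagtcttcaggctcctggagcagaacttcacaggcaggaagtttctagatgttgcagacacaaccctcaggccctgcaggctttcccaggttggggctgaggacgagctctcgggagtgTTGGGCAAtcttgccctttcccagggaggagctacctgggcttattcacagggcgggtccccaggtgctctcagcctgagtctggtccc

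DLEU1 itself was read first, because its signal checks the labels of the arrays. The processed signal of its brightest probe was 2178 in the control cells and 14156 in the DLEU1 cells, 6.67-fold higher. The other DLEU1 probes, for another transcript, were higher by 0.85 and 0.54 on the log2 scale. On the control array 47.6% of the probes were well above background, the criterion for detection used throughout, and on the DLEU1 array 48.1%. All 12 keratinocyte markers, among them KRT5, KRT14 and TP63, were detected on both arrays, and 9 of them were at least 2-fold higher in the DLEU1 cells, with a median log2 difference of 1.74. One area of the DLEU1 array was damaged (449 probes), and 0 of the 10 antimicrobial genes had a probe there.

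In the DLEU1 cells, 7 of the 10 antimicrobial genes were detected, against 5 in the control cells, and 3 were detected on neither array. PI3, LCN2, DEFB4A and SLPI were at least 2-fold higher in the DLEU1 cells (4 of the 5 genes detected on both arrays), RNASE7 was higher by less than 2-fold, and 0 were at least 2-fold lower. PGLYRP4 and PGLYRP3 were detected only in the DLEU1 cells. For comparison, 2-fold increases made up 9.18% of the 20246 genes detected on both arrays and 2-fold decreases 9.78%. Increases were 48.4% of these calls, and 16.0% with spike-in scaling, which sets control RNA added to both samples equal. That scaling rested on 8 spike-in probes detected on both arrays. The median log2 difference of the 5 genes was 3.04 (8.24-fold), beside a median of -0.07 over all genes detected on both arrays. With PGLYRP3 and PGLYRP4 at their lower bounds the median over 7 genes was 2.80, and these additions had to be positive because both genes were detected only in the DLEU1 cells. Differences were taken as DLEU1 cells minus control cells, after each array's 75th percentile was subtracted on the log2 scale. In bulk RNA such as this, more cells with a transcript and more transcript per cell cannot be told apart.

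**Figure D1:**
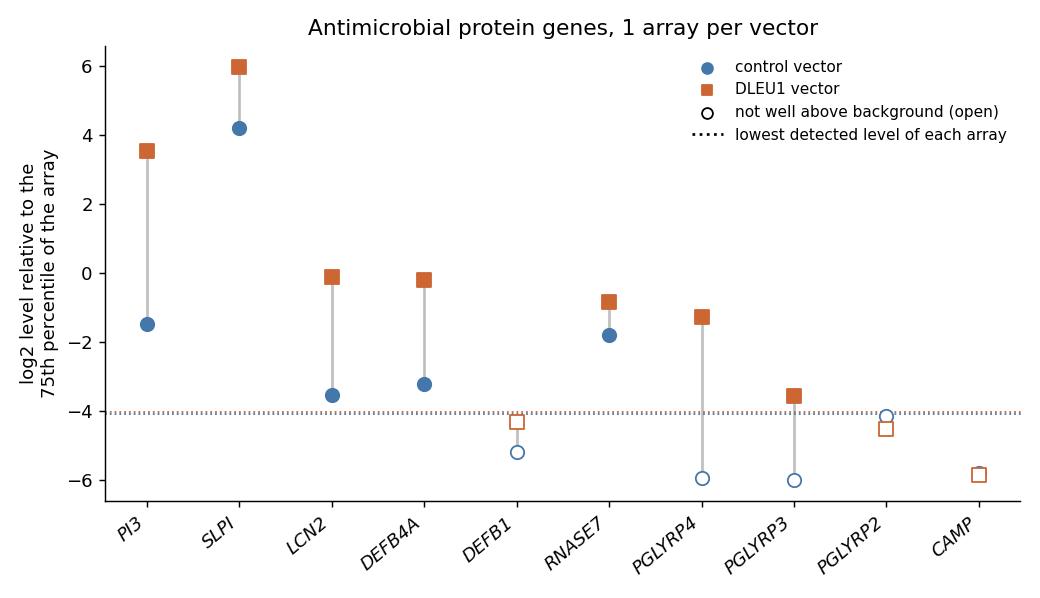
Log2 level of each antimicrobial gene relative to the 75th percentile of its array, with circles for the control cells, squares for the DLEU1 cells, and open symbols for probes not well above background. The dotted lines are the lowest detected level of each array, -4.09 in the control cells and -4.04 in the DLEU1 cells, and the 5 genes with filled symbols on both arrays have the square above the circle. Heights can be compared within a gene but not between genes, whose probes differ.

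Both WAP domain protease inhibitors were higher in the DLEU1 cells, and PI3 had the largest difference of the 5 genes. The processed signal of PI3 was 87.1 ± 9.51 in the control cells and 2751 ± 275 in the DLEU1 cells, where the error is the one the scanner software assigned to a single spot. PI3 was thus 32.4-fold higher, a log2 difference of 5.02. This was the 23rd largest increase among the 20246 genes, and 0.109% of genes had a larger one. PI3 is the elastase and proteinase 3 inhibitor that transglutaminases cross-link into the cornified envelope.

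SLPI, an inhibitor of neutrophil elastase and cathepsin G that is abundant in saliva, was already bright in the control cells. Its signal was 4435 ± 444 in the control cells and 14913 ± 1491 in the DLEU1 cells, 3.45-fold higher (log2 difference 1.79). For spots as bright as these, the SDs of repeated spots within each array combined to 0.0814 on the log2 scale. The SLPI and PI3 probes lie 77.6 kb apart on chromosome 20. No saturated spot was present on either array (0), so the bright end did not limit the SLPI value.

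LCN2 was dim in the control cells and well above background in both cultures. Its signal was 20.8 ± 3.59 in the control cells and 217 ± 21.9 in the DLEU1 cells, 10.69-fold higher (log2 difference 3.42). The raw mean of its control spot was 57.8 on a local background of 23.5, so the size of this difference rests on how the background was taken off. With normexp, a background correction that models the background and keeps every signal positive, the log2 difference of LCN2 was 1.84, and that of DEFB4A, which was also dim in the control cells, was 1.64. PI3 was least affected of these 3, at 4.16.

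Of the defensins, DEFB4A was detected on both arrays and DEFB1 on neither. DEFB4A encodes human beta-defensin 2, the inducible epithelial defensin, and was measured by a plus-strand probe on chromosome 8 (7754081 to 7754140, hg19). Its signal was 25.7 ± 4.08 in the control cells and 206 ± 20.8 in the DLEU1 cells, 8.24-fold higher (log2 difference 3.04). The near-identical gene copy DEFB4B encodes the same peptide. The probe was not compared with that copy, so its signal may come from both. DEFB1 encodes the constitutive epithelial beta-defensin 1, with a probe on chromosome 8 from 6728181 to 6728240 on the minus strand. Its signal was 6.62 in the control cells and 11.7 in the DLEU1 cells, not well above background on either array, and no fold is given.

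RNASE7, a ribonuclease with broad antimicrobial activity made by differentiated keratinocytes, had the smallest difference of the 5 genes detected on both arrays. Its signal was 69.7 ± 7.61 in the control cells and 130 ± 13.4 in the DLEU1 cells (chr14:21511211-21511270, plus strand). The log2 difference was 0.94 (1.92-fold), and 10.1% of all genes had a larger one. It was 4.67 times 0.201, the combined SD of repeated spots of this brightness within each array. That SD holds no spread between cultures or arrays, and only 4 repeated probes of the control array lay in the range. Taking the 75th percentile over detected probes only moved RNASE7 past 2-fold, to 1.05, and spike-in scaling moved it down to 0.48.

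**Figure D2:**
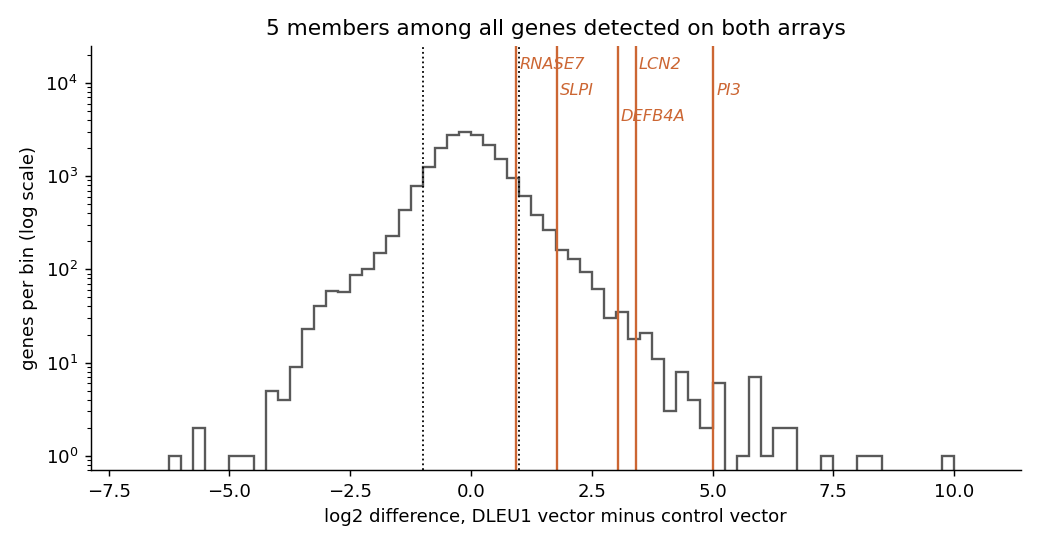
Number of genes per bin (log scale) against the log2 difference for the 20246 genes detected on both arrays, with orange lines at the 5 antimicrobial genes detected on both and dotted lines at 2-fold. RNASE7 lies just inside the upper dotted line and the other 4 lie in the right tail, with PI3 at 5.02.

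The peptidoglycan recognition proteins were at or near background in the control cells. PGLYRP4, a bactericidal member made in skin and oral epithelium, had a signal of 3.93 in the control cells and 96.3 ± 10.1 in the DLEU1 cells. Taken against the lowest detected signal of the control array, PGLYRP4 was at least 6.96-fold higher. Its bound on the log2 scale was 2.80, and 1.22 with normexp. PGLYRP3, its close relative (probe chr1:153276411-153276470, minus strand), was set to a surrogate value of 3.72 by the software in the control cells and reached 19.9 ± 4.23 in the DLEU1 cells, at least 1.44-fold higher. Of the 1242 genes detected only in the DLEU1 cells, 35.6% had a bound of at least 2-fold, which PGLYRP4 passed and PGLYRP3 did not. The share of such genes with a bound as large as that of PGLYRP4 was not counted. PGLYRP2, an amidase made mainly by the liver, was not well above background on either array (13.5 in the control cells and 10.2 in the DLEU1 cells, probe chr19:15586359-15586418, minus strand).

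CAMP encodes the precursor of the cathelicidin peptide LL-37, which neutrophils store and keratinocytes make under vitamin D. Its signal was 4.31 in the control cells, and in the DLEU1 cells the software set it to a surrogate value of 4.02 (probe chr3:48266856-48266915, plus strand). CAMP was therefore not well above background on either array. The vitamin D receptor gene VDR was well detected, at 3865 in the control cells and 4587 in the DLEU1 cells (log2 difference 0.28).

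The error of these values is that of single spots. Over 282 probes printed several times and detected on both arrays, the SD of the log2 difference between single spots was 0.0797, and it was larger for dim spots. For spots as dim and as bright as those of LCN2 or DEFB4A, the SDs of repeated spots within each array combined to 0.51. Only 2 repeated probes of the control array lay in that dim range. The median difference of the 100 spots around each of the 10 probes lay between -0.19 and 0.048, so no probe sat in an area that was bright on the DLEU1 array. The other settings gave 71 values of these 5 genes, all of them above 0, and the 4 genes past 2-fold stayed past it in each. Many of these values could not move, because settings that change only the filter, the probe summary or the damaged area leave them as they are. Only SLPI was left when both arrays had to reach a signal of 100.

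**Figure D3:**
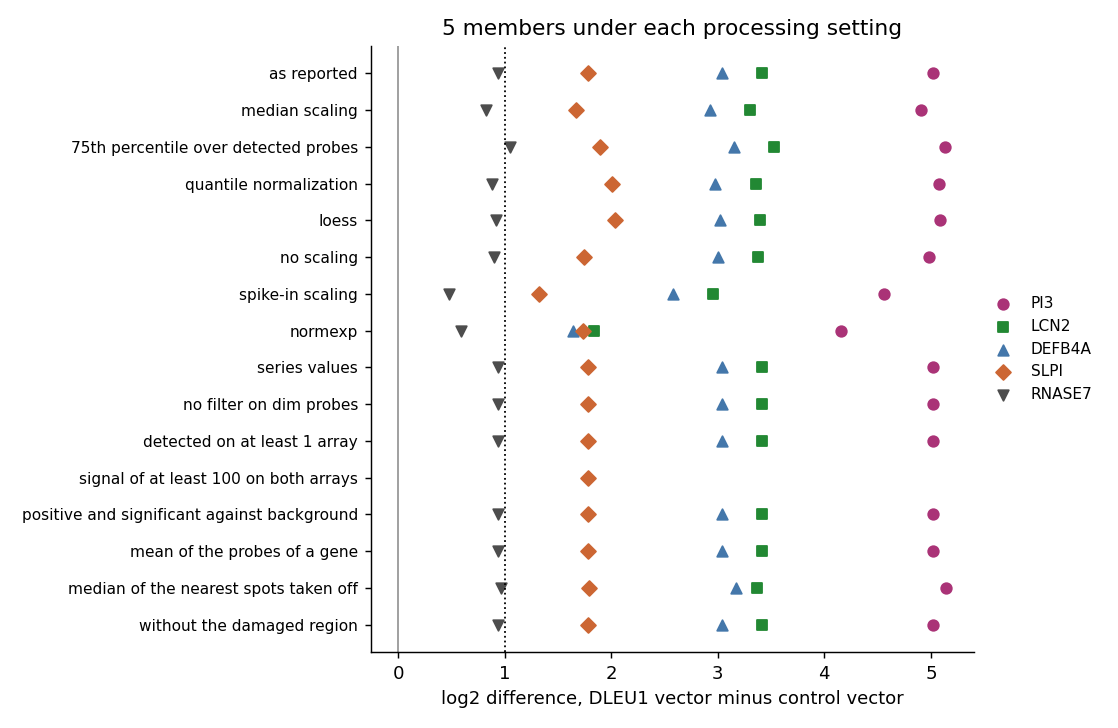
Log2 difference of the 5 antimicrobial genes detected on both arrays (horizontal axis) under each processing setting (rows), with a dotted line at 2-fold. No point lies below 0, the normexp row has the lowest LCN2 and DEFB4A values (1.84 and 1.64), and RNASE7 passes the dotted line only with the 75th percentile over detected probes.

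Other genes of the same protein families were then read from lists of relatives. Of 14 other WAP domain proteins, 4 were detected on both arrays, 3 of them at least 2-fold higher and 0 lower, with a median of 1.34. WFDC5 had a signal of 19.2 in the control cells and 202 in the DLEU1 cells (log2 difference 3.44). ANOS1, which encodes anosmin, was higher by 1.504 and WFDC3 by 1.18. WFDC12 was detected only in the DLEU1 cells, with a bound of 3.09. Of the 21 other defensins with a probe, 2 were detected on both arrays, both under 2-fold (median 0.82). DEFB103B, which encodes human beta-defensin 3, had a signal of 16.3 in the control cells and 280 in the DLEU1 cells and a bound of 4.14. The separate probe named for its near-identical copy DEFB103A was not well above background on either array (3.05 and 2.99). DEFB132 had a bound of 0.94, and DEFB131A and DEFB121 were detected only in the control cells (bounds -0.15 and -0.076).

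The ribonuclease A relatives of RNASE7 included 4 genes detected on both arrays of 11 with a probe, 2 at least 2-fold higher and 0 lower (median 0.92). ANG (angiogenin) was higher by 1.68, from 214 to 670, and RNASE4 by 1.46, from 53.9 to 144. Both genes share a promoter region and belong to the same cluster as RNASE7. The lipocalin relatives of LCN2 did not show such differences. Of 18 lipocalins, 7 were detected on both arrays and 0 passed 2-fold either way by their brightest probe, with a median of -0.06 whose sign changed under some settings. A dimmer probe of PTGDS was higher by 2.09, while its brightest differed by -0.02. LCN15 was detected only in the control cells (bound -1.22), as was LCN8 (bound -0.25), and LCN12 in the DLEU1 cells only (bound 0.46).

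Among 39 other antimicrobial effectors with a probe, 12 were detected on both arrays, 5 2-fold or more higher and 2 lower by as much (median 0.65). S100A7 (psoriasin), which kills Escherichia coli on skin, was higher by 2.81, from 40.6 to 276. DUOX2 and DUOX1, oxidases that release hydrogen peroxide at epithelial surfaces, were higher by 2.26 and 1.40. S100A8 and S100A9, the subunits of calprotectin, were detected only in the DLEU1 cells, with bounds of 5.45 and 4.96. S100A8 reached a signal of 606 and S100A9 one of 430, from 5.64 and 3.66. In the other direction, the acute phase gene SAA1 differed by -3.40, from 387 to 35.8, and the brightest LEAP2 probe by -1.52, while the other LEAP2 probe differed by -0.0028. SAA2 and CCL20 were detected only in the control cells (bounds -1.17 and -0.16).

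**Figure D4:**
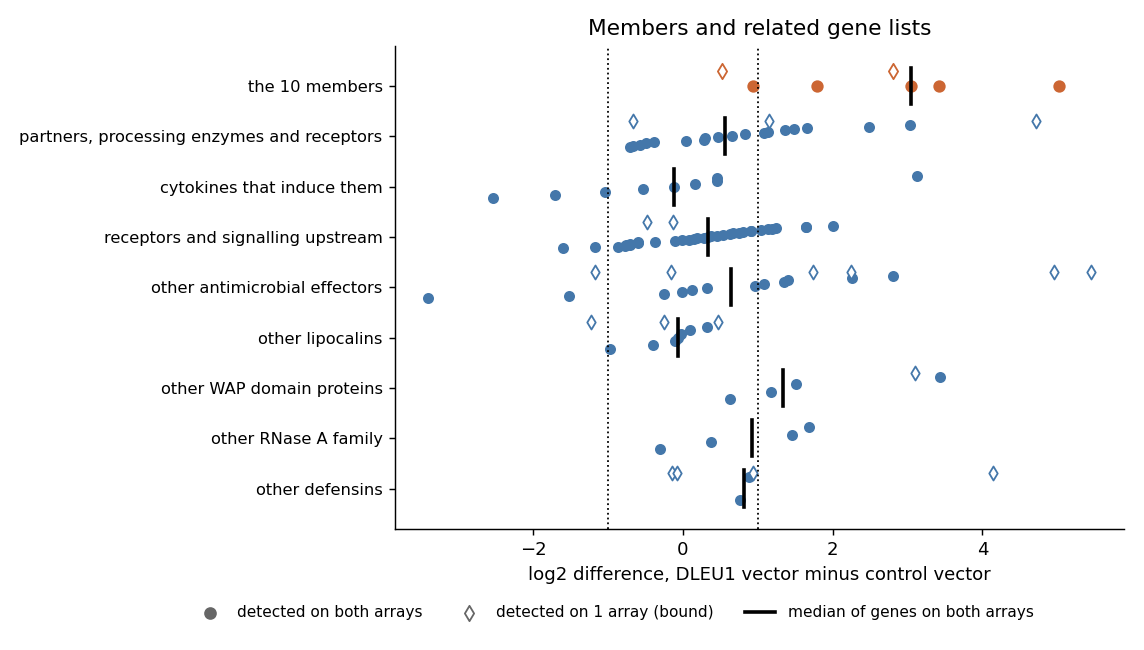
Log2 difference of each gene (filled circles, detected on both arrays) or its bound (open diamonds, detected on 1 array) for the 10 antimicrobial genes in orange and for 8 lists of related genes in blue. Black bars are medians over the filled circles and dotted lines mark 2-fold. The antimicrobial genes have the highest median (3.04), and lipocalins and cytokines have medians near 0, whose sign changed under some settings.

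Receptors and signalling genes that act upstream of antimicrobial genes were mostly detected, 33 of 42 on both arrays. Of these, 7 were 2-fold or more higher and 2 lower by as much, with a median of 0.34 that turned to -0.12 with spike-in scaling. CEBPE, a C/EBP transcription factor, was higher by 2.01, from 23.5 to 92.3. The brighter genes of this family, CEBPA, CEBPD and CEBPB, differed by less than 2-fold (0.80, 0.63 and -0.11). NOD2, a cytosolic sensor of peptidoglycan fragments, was higher by 1.64. The brightest probe of the flagellin receptor TLR5 was also higher by 1.64, while another TLR5 probe differed by -0.26. The endotoxin co-receptor CD14 differed by -1.60 and IL6ST, the shared receptor chain of the IL-6 family, by -1.18. TIRAP and P2RX7 were detected only in the control cells (bounds -0.48 and -0.13).

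Cytokines came next, in a list that mixed inducers of antimicrobial proteins in keratinocytes with antagonists such as IL1RN. Of 25 genes, 9 were detected on both arrays, 1 2-fold or more higher and 3 lower by as much, with a median of -0.12 that became 0.023 when both signals had to reach 100. The gene that was higher was IL1RN, which encodes the IL-1 receptor antagonist, from 2016 to 17169 (log2 difference 3.13), and its other probe was higher by 2.15. CSF2 differed by -2.54, IL6 by -1.71 and IL1A by -1.04. IL1B, a main inducer of DEFB4A, differed by less than 2-fold, at 20028 in the control cells and 13486 in the DLEU1 cells (log2 difference -0.53). It was named after its values were seen.

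Proteins that process, bind or cross-link the antimicrobial proteins formed the last list. Of 28 genes, 18 were detected on both arrays, 7 at least 2-fold higher and 0 lower (median 0.57). KLK5, a kallikrein protease of the upper epidermis that cleaves the cathelicidin precursor, was higher by 3.03, from 470 to 3729. Its inhibitor SPINK5 was detected only in the DLEU1 cells (signal 387, bound 4.71). TGM1, the transglutaminase that cross-links cornified envelope proteins, was higher by 2.49, from 181 to 993, PLSCR4 by 1.66, and TGM5 had a bound of 1.14. TGM2 was detected only in the control cells (bound -0.66). MMP9, which forms a complex with LCN2, differed by 0.04, and SLC22A17, a proposed LCN2 receptor, by 0.83. RNH1, the cytosolic inhibitor that binds RNase A family members, differed by -0.50. ELANE, the neutrophil elastase gene whose product PI3 and SLPI inhibit, was not well above background (3.23 in the control cells and 6.36 in the DLEU1 cells).

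LCN2, SLPI and CAMP are also products of neutrophils, so markers of other cell types were read beside them. Of 9 neutrophil or myeloid markers with a probe, 5 were detected in the control cells and 6 in the DLEU1 cells. Their summed signal was 326 and 317. Of the granule genes, MPO, ELANE and AZU1 were not well above background on either array, while PRTN3 was detected on both, at 66.5 in the control cells and 39.9 in the DLEU1 cells. CD14, ITGAM, CSF3R and PTPRC were also detected on both arrays, with log2 differences of -1.60, -0.65, 0.30 and 0.45. S100A12 was detected only in the DLEU1 cells (bound 1.74). Of 5 salivary acinar markers with a probe 2 were detected on each array (summed signal 276 and 313), and of 5 lymphoid markers 1 (summed signal 198 and 152). Of 8 fibroblast markers, 2 were detected in the control cells and 3 in the DLEU1 cells, with a summed signal of 381 and 5300. Nearly all of that was COL1A1 (337 and 5217), while COL1A2 and COL3A1 were not well above background on either array. The part of these markers in the antimicrobial values was not tested.

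The genome neighbours of the antimicrobial genes were read within 500 kb of each probe on hg19. The PGLYRP3 and PGLYRP4 probes lie 34.9 kb apart in the epidermal differentiation complex on chromosome 1, which also holds the S100 genes and genes of the cornified envelope. Around PGLYRP4, 10 of 25 neighbours detected on both arrays were 2-fold or more higher and 1 was lower by as much (median 0.63), and another 8 had a bound of at least 2-fold higher. The nearest of these were S100A9 at 20.7 kb, S100A12 at 34.9 kb and S100A8 at 51.2 kb, and on the other side LOR, which encodes loricrin, had a bound of 5.50. S100A12 and LOR were named after their values were seen. Around PI3, 3 of 15 neighbours were 2-fold or more higher and 2 lower by as much (median 0.068). SLPI, WFDC5 and WFDC12, all of the WAP cluster, lay among those that were higher or had a bound past 2-fold. SLPI is itself 1 of the 10 antimicrobial genes. WISP2 was also higher, by 2.80, while the WAP domain gene WFDC2 differed by less than 2-fold (0.63). Around LCN2 2 of 31 neighbours were higher and 1 lower (median 0.052), and around RNASE7 3 of 17 were higher, ANG and RNASE4 among them, and 3 lower (median 0.31). Over all 131 neighbours detected on both arrays, the antimicrobial genes left out, 24 were at least 2-fold higher and 10 lower by as much. The higher ones made up 18.3%, and 11 of them lay around PGLYRP3 on chromosome 1. Of all genes, 9.18% were higher and 9.78% lower. The 131 neighbours share clusters with each other, so they are not independent values.

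**Figure D5:**
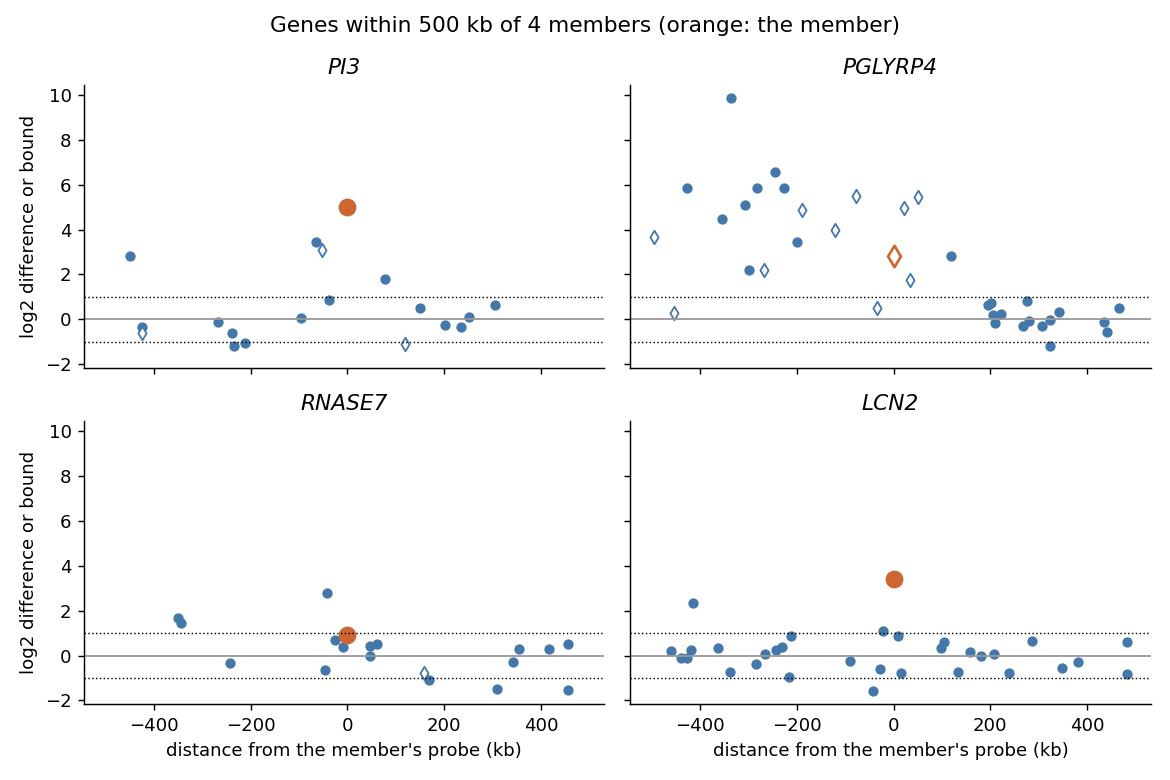
Log2 difference (filled circles) or bound (open diamonds) of genes within 500 kb of PI3, PGLYRP4, RNASE7 and LCN2, against distance in kb, with the named gene in orange at 0 and dotted lines at 2-fold. Values past 2-fold cluster on the left of and close to PGLYRP4, while around LCN2 most points lie between the dotted lines.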

How the data were processed

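RNA from Ca9-22 cells infected with either lentivirus was labelled with Cy3 and hybridised to 1 SurePrint G3 Human GE array each. The deposited intensity values were made by the authors with Agilent Feature Extraction 10.7.3.1, which took off the background, detrended the signal and replaced the signal of very dim spots by a surrogate. The series values of the authors hold the same signal and differed by at most 0.497%. Detection used the deposited flag for a spot well above background.

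Control spots and outlier spots (84 and 103 on the control and DLEU1 arrays) were left out, log2 processed signals were averaged over the spots of each probe, and the array's 75th percentile over non-control probes was subtracted. The brightest probe detected on both arrays stood for a gene. A probe detected on 1 array has a bound, taken against the higher of its own signal and the lowest detected signal of the other array. A gene was counted as changed at 2-fold. Spot errors came from probes with at least 5 spots. With 1 array per group no test was run, and both arrays came from 1 slide and 1 scan. Scaling and the counts of changed genes were tested on simulated data. The noise there was that of bright spots, so dim spots, normexp and spike-in scaling were not covered. Python 3.11.15, R 4.3.3 and limma 3.58.1 (normexp, offset 50, and loess, span 0.3) were used.

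The antimicrobial genes, the 8 related lists and the motifs were chosen with earlier results of these data known. All 10 genes are named, as are DLEU1, the 3 largest increases and the 3 largest decreases past 2-fold of each list, the 2 largest bounds each way, and ELANE, RNH1, TGM1, SLC22A17 and MMP9. Other genes named were chosen after their values were seen. The window of 500 kb and the damaged area (over 35% of the 50 nearest lit spots at least 2-fold lower) were also chosen after the data were seen. Positions are those of the deposited files (hg19), and whether a probe lies in an untranslated region was not determined. List genes without a probe of that name were looked up by older symbols (ANOS1 as KAL1 and DEFB131A as DEFB131). Those still without a probe are not analysed here.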

Additional observations from a re-analysis of the deposited data

How the results depend on the processing

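Of 71 values of the 5 antimicrobial genes detected on both arrays under alternative settings, 48 moved by less than the spot SD, 23 moved by more and 0 changed sign. Many of the 48 could not move. Each gene has 1 probe outside the damaged area, so settings that change only the filter, the probe summary or that area returned the same value. PI3 ranged from 4.16 to 5.15, LCN2 from 1.84 to 3.53, DEFB4A from 1.64 to 3.17, SLPI from 1.33 to 2.04 and RNASE7 from 0.48 to 1.05. Their median was 3.15 when the 75th percentile was taken over detected probes, 2.93 with median scaling, 2.58 with spike-in scaling, 1.73 with normexp and 3.17 with the median of the nearest spots taken off. Because other genes entered, it was 2.12 with no filter on dim probes and 2.41 with detection set at positive and significant. Requiring a signal of 100 on each array gave 1.79, where 1 gene was left (1 at least 2-fold higher).

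Counts of all probes follow as higher and lower, 2360 and 2571 as reported. Spike-in scaling gave 1152 and 6349, no filter gave 5537 and 5008, counting from 1.5-fold gave 4772 and 5832, and from 3-fold 958 and 855. Higher probes numbered 1329 with normexp, 1226 with a signal of at least 100 and 3796 with the positive and significant criterion. Of the genes past 2-fold, 48.4% were higher as reported and 16.0% with spike-in scaling. Spike-in scaling shifted the median of all genes by -0.46, scaling on the median by -0.11, and on detected probes by 0.11. List medians changed sign for the upstream receptors (-0.12 with spike-in scaling), the cytokines (0.023 with a signal of at least 100) and the lipocalins (0.049 with the percentile over detected probes, 0.104 with the nearest spots taken off and 0.005 with normexp). Spike-in scaling took the medians of the other lists down to 0.36 for defensins, 0.46 for the RNase A family, 0.88 for WAP domain proteins, 0.19 for effectors and 0.10 for partners. Normexp gave 0.32 for defensins, 0.48 for the RNase A family and 0.85 for WAP domain proteins. With no filter on dim probes the defensin, RNase A family, WAP and effector medians were 0.059, 0.060, 0.37 and 0.070, and that of the receptors 0.17. The PGLYRP3 bound ranged down to 0.060 with spike-in scaling. The cause of these changes was not tested. With 1 array per vector, no array could be left out, and slide could not be fitted as a block. No paired analysis was possible because each group has 1 array. Signal over background left DEFB1, PGLYRP2 and CAMP without a fold and PGLYRP3 and PGLYRP4 with a bound.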
